A study of Rattus norvegicus with 8 samples.

Results

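Sialyltransferases and related glycosyltransferases are Golgi enzymes that add single sugars to proteins and lipids. The genes described here are those whose symbol in the probe annotation starts with St3gal, St6gal, St8sia, B3gal, B3gnt, B4gal, Galnt, Mgat or Fut. There were 73 such genes, with 101 spots, among the 14871 named genes of the array. Of these, 36 genes had at least 1 spot with a value on all 8 arrays and were described in full, and the other 37 are accounted for separately. The family was put together around St6galnac5, which was picked for its low ratio in cells of hypertensive eyes in these same data. The difference between the eyes is therefore a description for every member here, and no test of it is offered.

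The arrays held RNA of purified rat retinal ganglion cells (RGCs), the neurons that send their axons through the optic nerve to the brain. The 4 COH samples came from eyes with chronic ocular hypertension, a lasting rise of pressure used as a model of glaucoma, and the 4 control samples from the normotensive fellow eyes of the same animals. Each pair of samples came from 1 pooled group of animals, and the 4 groups were independent. The labels state neither strain nor age, nor how pressure was raised or cells were purified. Every sample was hybridised in Cy5 against a commercial rat reference RNA in Cy3, so each value is a log2 ratio of the cells over the reference. Such ratios do not rank the amount of RNA of one gene against that of another. RNA of a pool was measured in bulk, so fewer cells of a type and less RNA per cell cannot be told apart.

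Gangliosides are sialic acid-bearing glycolipids of the outer cell membrane and are especially abundant in neurons. Their synthesis starts from glucosylceramide: B4galt5 and B4galt6 add galactose to make lactosylceramide, and St3gal5 adds the first sialic acid. B4galnt1 and B3galt4 then lengthen the chain with N-acetylgalactosamine and galactose, and further sialic acids are added by enzymes of the St3gal, St8sia and St6galnac groups. The remaining members act mainly on proteins: Mgat enzymes branch N-glycans, Galnt enzymes start mucin-type O-glycans, Fut enzymes add fucose, and most B3gnt and B4galt enzymes extend lactosamine chains.

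Of 45220 spots, 32101 to 42076 had a value per array. The array of COH 4 stood apart: its mean correlation with the others, over 9767 spots with distinct values, was 0.678, against 0.772 to 0.840 for the other 7 arrays (across spots, which are not replicates). The median difference over all items, which are valued on all 8 arrays, was -0.10, 0.00, 0.34 and 0.07 in pairs 1 to 4. Over these items pair 3 was thus shifted upward. Over all valued spots of an array the median was -0.06 for COH 3 and 0.13 for control 3. Of the markers listed for the labelled cell type, 2 of 10 measured RGC markers exceeded the reference RNA on each control array. The same was so for 3 of 4 photoreceptor markers, 4 of 8 markers of Muller glia and astrocytes and 3 of 7 markers of microglia and macrophages. Over all named genes the share was 22.3%. These counts do not measure the purity of the cells, which was not tested. Pou4f1, Pou4f2, Pou4f3 and Nefh, further RGC markers, had no item on all arrays.

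St6galnac5, which transfers sialic acid to the N-acetylgalactosamine of gangliosides and makes the alpha series of them in brain, had 1 spot. Its log2 ratios were -4.02, -4.39, -1.49 and -3.56 on the COH arrays 1 to 4, against -0.78, -1.86, 0.16 and -1.62 on the control arrays 1 to 4. It was lower in COH cells in each of the 4 pairs, but the groups overlapped, because COH 3 lay above control 2 and control 4. St6galnac5 averaged -3.37 ± 1.30 in COH cells and -1.02 ± 0.91 in control cells (SD, n = 4 each), a difference of -2.34 ± 0.39 (SE). Here and below the SE of a difference is from limma, a linear model fit that pulls each gene's variance toward a common value. Such an SE is therefore not the spread of that gene's own 4 pairs.

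The St6galnac5 spot had a value on every array that at least 3 spots of that array shared exactly. Values held by at most 2 spots are called distinct here. The number of spots with the same value was 6, 6, 21 and 3 on the COH arrays, and 24, 18, 8 and 11 on the control arrays. On COH 1, COH 2 and COH 4 the value belonged to the lowest 0.734%, 0.627% and 1.84% of the array, and on COH 3 to the lowest 17.2%. On the control arrays it stood at the lowest 27.7%, 10.9%, 50.6% and 16.7%. Spot intensities were not used here, and the part of such repeated values in the difference was not tested.

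The other ganglioside enzymes are set beside St6galnac5 as a description. As St6galnac5 was picked for its low COH ratio, its larger difference was in part fixed by that choice. Nothing is read from the medians and ranks below. Of 15 genes listed for lactosylceramide and ganglioside synthesis, 9 were measured on all arrays, and 3 of them (St6galnac5, St6galnac6 and B4galnt1) were lower in COH cells in 4 of 4 pairs, while none was higher in all 4. Over all 18595 items the share lower in 4 of 4 pairs was 4.66% and the share higher 8.38%. As the contrast chose the family, nothing is read from these counts. The median difference of the 9 was -0.18, and -0.05 for the 8 without St6galnac5, beside 0.08 over all items. Within pairs 1, 2 and 3 each of the other 8 enzymes had a higher difference than St6galnac5. In pair 3 the margin was small, with -1.65 for St6galnac5 and -1.58 for B4galt5, and in pair 4 St6galnac6 (-3.30) lay below St6galnac5 (-1.94).

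**Figure D1:**
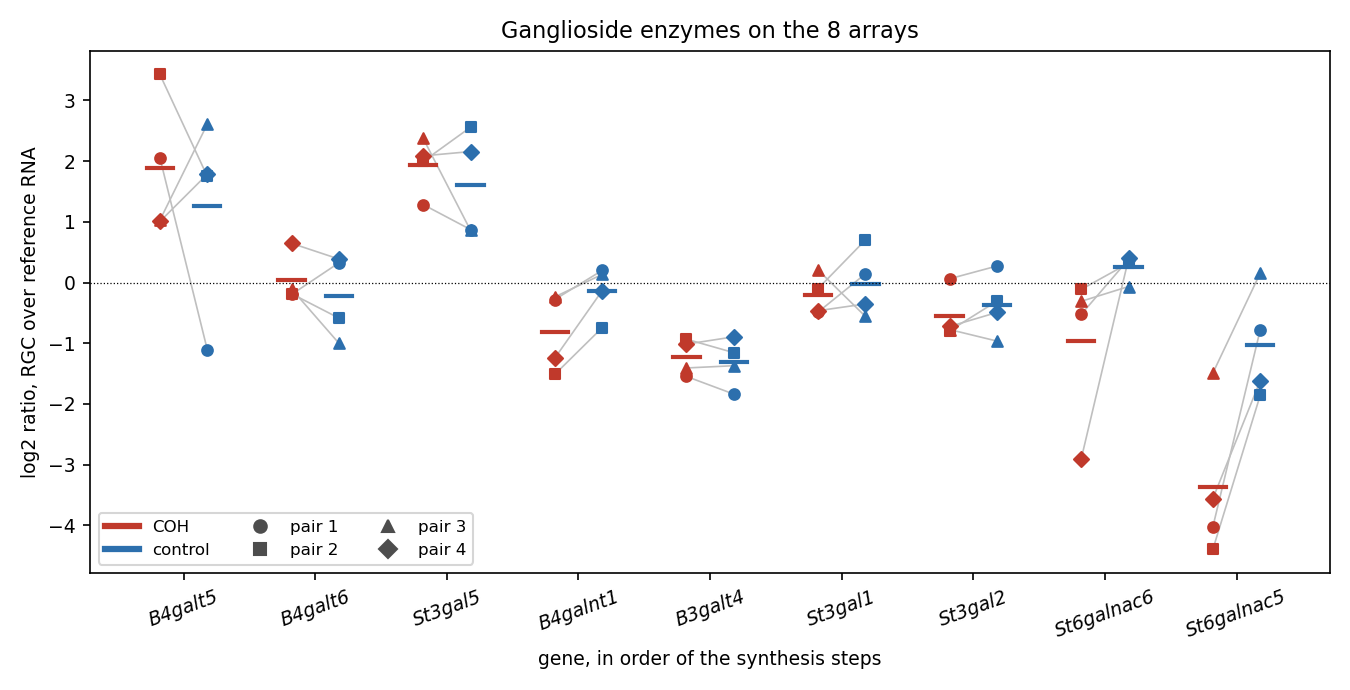
Log2 ratio of RGC over reference RNA (vertical axis) for the 9 measured ganglioside enzymes (horizontal axis) on the 4 COH and 4 control arrays. Symbols mark the pair, grey lines join COH and control of a pair, and bars are means. St6galnac5 is lower in COH in every pair, with means of -3.37 in COH and -1.02 in control, while the lines of St3gal1, St3gal2, St3gal5, B3galt4, B4galt5 and B4galt6 run both ways.

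The first steps of the pathway had differences of either sign. B4galt5, a lactosylceramide synthase, was at 2.05, 3.43, 1.03 and 1.01 in COH, against -1.11, 1.75, 2.61 and 1.78 in control cells. Its difference of 0.62 ± 0.79 (SE) was higher in 2 of 4 pairs and was -0.23 without pair 1. B4galt6, the second lactosylceramide synthase, was at -0.20, -0.18, -0.11 and 0.65 in COH, against 0.32, -0.59, -1.001 and 0.39 in control cells. Both groups of B4galt6 spanned 0, and the difference was 0.26 ± 0.37 (SE), higher in 3 of 4 pairs. It was 0.05 without pair 3, 0.52 without pair 1 and 0.06 without COH 4. A further B4galt6 spot, valued on 7 arrays and not used above, ran from -3.53 to -0.88. One more, on 6 arrays, ran from -1.52 to 1.83. With spots of at least 3 complete pairs the B4galt6 difference was 0.05.

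St3gal5, the synthase of the simplest ganglioside of the series, was above the reference on all 8 arrays. It was at 1.28, 1.99, 2.37 and 2.09 in COH, against 0.87, 2.56, 0.86 and 2.16 in control cells, as the mean of 2 spots. The groups overlapped, and the difference of 0.32 ± 0.43 (SE) was higher in 2 of 4 pairs and was -0.07 without pair 3. A further St3gal5 spot had a value on all 4 COH arrays (0.64 to 2.83) and on 0 of 4 control arrays.

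B4galnt1, which adds N-acetylgalactosamine and so opens the way to the complex gangliosides, was lower in COH cells in 4 of 4 pairs. Its ratios were -0.28, -1.51, -0.24 and -1.25 in COH, against 0.20, -0.74, 0.13 and -0.13 in control cells. COH 1 and COH 3 lay above control 2, so the groups overlapped. The difference was -0.68 ± 0.33 (SE), with pair differences from -1.11 to -0.37, and -0.54 without pair 4. Unlike the spot of St6galnac5, that of B4galnt1 had a distinct value on all 8 arrays.

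B3galt4, the galactosyltransferase that completes the neutral core of the complex gangliosides, had the smallest pair differences of the 36 members by their root mean square. It stood at -1.55, -0.93, -1.41 and -1.02 in COH, against -1.84, -1.16, -1.37 and -0.89 in control cells. The difference was 0.09 ± 0.32 (SE), and the pairs lay between -0.12 and 0.29. All 8 arrays were below the reference.

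St3gal1 and St3gal2 add sialic acid to the terminal galactose of complex gangliosides and of O-glycans. St3gal1 was at -0.49, -0.10, 0.21 and -0.46 in COH, against 0.14, 0.70, -0.56 and -0.35 in control cells. The mean of the 2 St3gal2 spots was 0.06, -0.79, -0.77 and -0.72 in COH, against 0.27, -0.31, -0.96 and -0.49 in control cells. Each was lower in 3 of 4 pairs with overlapping groups, by -0.19 ± 0.39 for St3gal1 and -0.18 ± 0.32 for St3gal2 (SE). A further St3gal1 spot was valued on 7 arrays and not used above. That spot was at 1.33, 0.31, -0.35 and -0.65 in COH, against 0.08, 0.49 and 0.76 on control arrays 1 to 3. One more, on 5 arrays, ran from -0.16 to 3.47.

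St6galnac6, the closest relative of St6galnac5 in the measured list by its reaction on gangliosides, had ratios of -0.52, -0.11, -0.31 and -2.90 in COH, against 0.38, 0.32, -0.07 and 0.40 in control cells, as the mean of 2 spots. All 4 COH values lay below all 4 control values, which was so for 1 of the 36 members and for 0.946% of all items. The difference was -1.22 ± 0.56 (SE), and -0.53 without pair 4, whose difference of -3.30 carried most of it. Neither spot alone separated the groups. One spot was lower by -0.96, -1.54 and -2.44 in pairs 1, 2 and 4 and higher by 0.80 in pair 3. The other was lower by -0.85, -1.28 and -4.15 in pairs 1, 3 and 4 and higher by 0.68 in pair 2.

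The ganglioside genes not valued on every array included the 3 St8sia members of the list, which add sialic acid to sialic acid. St8sia1, the enzyme that opens the b series, had a value on 1 COH array (2.40) and on 3 control arrays (2.54, 0.18 and 0.72). St8sia3 had values of 1.95 and 1.86 on 2 COH arrays, against 1.77, 1.44, 2.24 and 1.40 on the control arrays. St8sia5 was valued on 3 COH arrays and 4 control arrays, with a mean difference of 0.22 over 3 pairs, 1 of them higher. St6galnac3, which like St6galnac5 acts on gangliosides, was at -0.43, -2.46, -0.76 and -1.81 in COH, against -1.14, -1.05 and -0.57 on control arrays 1, 3 and 4, a mean difference of -0.08 over 3 pairs. St6galnac4 had 2 complete pairs and St3gal3 had 1.

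Over all 36 members the COH and control cells differed little on balance. The median difference was 0.12, beside 0.08 over all items, and 22 members had a positive difference and 14 a negative one. In 4 members (11.1%) COH was higher in 4 of 4 pairs and in 3 members (8.33%) lower, beside the 8.38% and 4.66% of all items. No member had all COH arrays above all control arrays, beside 1.58% of items. By limma with the pair as a block, 0 of the 36 members passed an adjusted p of 0.05, as did 0 of all items (0%). Under the selection that the design text states (unadjusted p under 0.05, at least 1.5-fold), 1 member was higher (Mgat5), beside 2.57% of all items, and 2 were lower (St6galnac5 and Galntl6), beside 2.17%. These 3 were also the members with an unadjusted p under 0.05. The Mgat5 call was lost without pair 1, 3 or 4. Galntl6 was named here after its values had been seen. Since the family was chosen on this contrast, these counts are printed without a reading.

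**Figure D2:**
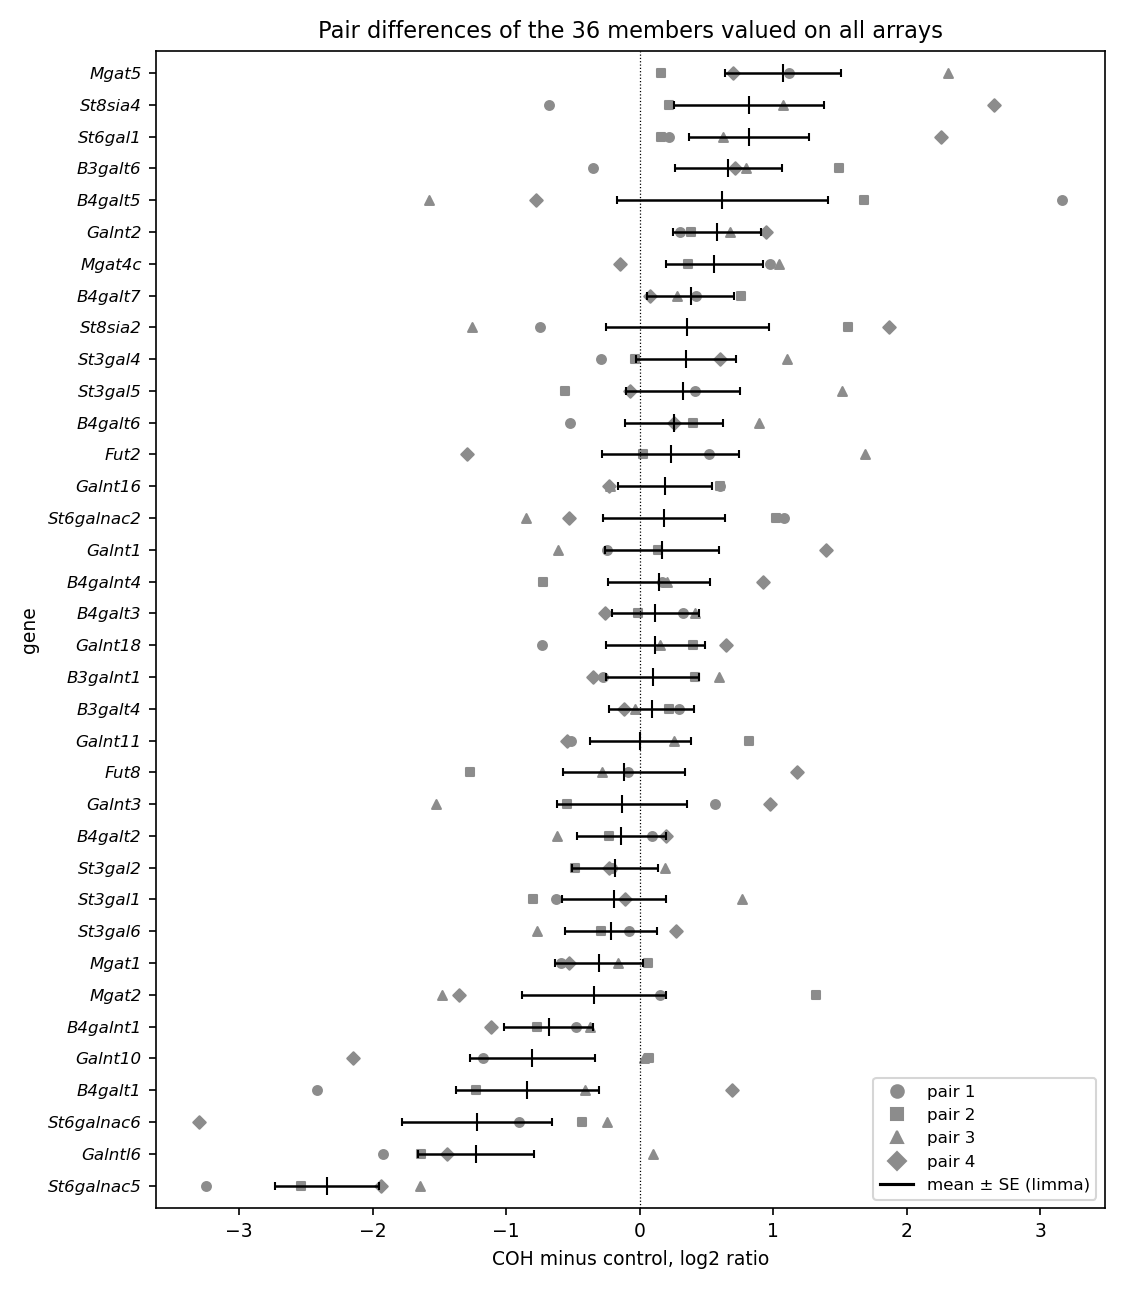
COH minus control log2 ratio (horizontal axis) of the 36 members with a value on all arrays (vertical axis, sorted by mean). Grey symbols are the 4 pairs, and the black bar is the mean with its limma standard error. The means run from -2.34 for St6galnac5 to 1.07 for Mgat5, and 29 members have pairs on both sides of 0.

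Mgat5, which starts the beta-1,6 branch of N-glycans, had the largest positive difference. It was at 1.81, 3.85, 3.49 and 1.93 in COH, against 0.69, 3.69, 1.18 and 1.23 in control cells. COH was higher in 4 of 4 pairs, by 1.07 ± 0.43 (SE), but control 2 lay above 3 of the 4 COH values. The pair differences ran from 0.16 to 2.31, and without pair 3 the mean was 0.66.

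The other measured Mgat genes act earlier on the same glycans or are of the Mgat4 branch. Mgat1, whose product starts all complex N-glycans, averaged -1.35 ± 0.46 in COH, against -1.04 ± 0.42 in control cells (SD, n = 4 each), and was lower in 3 of 4 pairs. Mgat2, the next enzyme, stood at -1.86, -2.18, -4.39 and -3.84 in COH, against -2.02, -3.50, -2.90 and -2.48 in control cells. It was higher in 2 pairs and lower in 2. Mgat4c, of the Mgat4 group, was at 2.87, 3.35, 2.98 and 2.56 in COH, against 1.90, 2.99, 1.94 and 2.71 in control cells, higher in 3 of 4 pairs by 0.56 ± 0.36 (SE). Values of Mgat4c were distinct on all 8 arrays and those of Mgat2 as well.

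Of the 6 measured sialyltransferases outside the ganglioside list, 1 was higher in all pairs and none lower, beside 8.38% and 4.66% of all items. Their median difference was 0.35, and 0.23 without pair 4, in which the median was 1.23. St6gal1, which caps N-glycans with alpha-2,6-linked sialic acid, was at -1.05, -0.98, -1.29 and 0.73 in COH, against -1.27, -1.14, -1.91 and -1.52 in control cells. In this mean of 2 spots, COH 4 alone was above the reference. The difference of 0.82 ± 0.45 (SE) was 0.33 without pair 4. The 2 spots valued on all arrays differed on this point. The spot with distinct values on all arrays was higher in 4 of 4 pairs, by 0.79, 0.42, 0.48 and 0.52. At the other spot, with shared values on 7 arrays, the pair differences were -0.35, -0.10, 0.76 and 3.99. A further St6gal1 spot, valued on 5 arrays and not in the average, was lower in COH in pairs 3 and 4. It was at 0.28, -1.82 and 0.27 on COH arrays 1, 3 and 4, against -0.79 and 2.32 on control arrays 3 and 4.

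St8sia2 and St8sia4 build polysialic acid on the neural cell adhesion molecule. St8sia2 was at -0.56, 0.47, 0.37 and 1.91 in COH, against 0.19, -1.08, 1.63 and 0.04 in control cells. St8sia4 was at -1.05, -0.47, 0.95 and -0.45 in COH, against -0.37, -0.69, -0.13 and -3.10 in control cells. The pair differences of St8sia2 ran from -1.26 to 1.87 and those of St8sia4 from -0.68 to 2.65, and both spots had shared values on 8 of 8 arrays. Without pair 4 the mean difference was -0.15 for St8sia2 and 0.20 for St8sia4. Ncam1, the carrier of polysialic acid, differed by 0.16 ± 0.32 (SE).

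St3gal4 and St3gal6 add alpha-2,3-linked sialic acid to lactosamine ends, and St6galnac2 acts on O-glycans. Among the spots valued on all 8 arrays, St3gal6 had the lowest mean ratio of the members, at -4.17, -3.71, -4.27 and -3.43 in COH, against -4.09, -3.42, -3.50 and -3.70 in control cells. St3gal4 was at -1.45, -1.86, -0.11 and -1.23 in COH, against -1.15, -1.83, -1.21 and -1.83 in control cells. St6galnac2 was above the reference on all 8 arrays, at 3.47, 1.92, 0.56 and 2.61 in COH, against 2.39, 0.90, 1.42 and 3.14 in control cells. In none of these 3 did the pairs all go one way.

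Polypeptide GalNAc-transferases, the enzymes that start mucin-type O-glycans on serine and threonine, had 8 measured members, with 1 higher in all pairs and none lower, beside 8.38% and 4.66% of all items. Their median difference was 0.06, and -0.15 without pair 4. Galnt2 was at 0.26, 0.66, 0.24 and 1.24 in COH, against -0.05, 0.27, -0.43 and 0.29 in control cells. It was higher in 4 of 4 pairs, by 0.58 ± 0.33 (SE) with pair differences from 0.30 to 0.95, although COH 1 and COH 3 lay within the control range. The difference was 0.36 without COH 4. Its spot had distinct values on all arrays.

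Galnt10 had the highest mean ratio of the 36 members in control cells. It was at 2.84, 1.51, 3.49 and 0.34 in COH, against 4.01, 1.43, 3.46 and 2.49 in control cells. Pairs 2 and 3 differed by 0.07 and 0.03, whereas pairs 1 and 4 differed by -1.17 and -2.15, and the mean difference was -0.36 without pair 4. Galntl6, a further member of this gene group, was at -0.05, 0.54, 1.65 and -1.05 in COH, against 1.87, 2.18, 1.55 and 0.39 in control cells. COH was lower in pairs 1, 2 and 4 by -1.92, -1.64 and -1.44, and pair 3 differed by 0.10. The remaining 5 (Galnt1, Galnt3, Galnt11, Galnt16 and Galnt18) had mean differences between -0.13 and 0.19. A further spot of Galnt1, without a value on control 4 and so not in its average, was at -4.00, -4.84, -4.19 and -4.27 in COH, against -3.89, -2.87 and -4.12 on control arrays 1 to 3. The Galnt1 spot valued on all arrays lay between -1.53 and 0.60.

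Among the galactosyltransferases that are not in the ganglioside list, B4galt7, which adds the first galactose of the linker between proteoglycan core proteins and their glycosaminoglycan chains, was higher in 4 of 4 pairs. It was at -0.02, -0.37, -0.80 and -0.59 in COH, against -0.44, -1.13, -1.07 and -0.67 in control cells, as the mean of 2 spots. The difference was 0.38 ± 0.33 (SE), with pairs from 0.08 to 0.76 and overlapping groups. Neither spot of B4galt7 alone was higher in all pairs: one was higher in 2 of 4 and the other in 3 of 4. B3galt6, which adds the second galactose of the same linker, was higher in 3 of 4 pairs, by 0.66 ± 0.40 (SE), or 0.39 without pair 2, with shared values on 8 of 8 arrays.

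B4galt1, the main galactosyltransferase of lactosamine chains, was at -2.59, -3.06, -3.26 and -2.15 in COH, against -0.18, -1.83, -2.85 and -2.84 in control cells, as the mean of 2 spots. On control 1 these spots stood at 1.42 and -1.78. The difference of B4galt1 was -0.84 ± 0.53 (SE), lower in 3 of 4 pairs, and -0.32 without pair 1. B4galt3, of the same group, had the next smallest pair differences after B3galt4, with -0.73, -0.52, -0.86 and -1.17 in COH, against -1.05, -0.51, -1.27 and -0.91 in control cells. B4galt2 differed by -0.14 ± 0.33 and B4galnt4 by 0.14 ± 0.38 (SE), and each had pairs of either sign. B3galnt1, the globoside synthase, was below the reference on all 8 arrays as the mean of 2 spots. It was at -0.99, -0.98, -1.35 and -2.26 in COH, against -0.72, -1.39, -1.95 and -1.91 in control cells. Another B3galnt1 spot, valued on 4 arrays and not in this mean, ran from -1.09 to 1.13. One more, also on 4 arrays, ran from -1.31 to 1.98. Of the fucosyltransferases, Fut8, which adds the core fucose of N-glycans, differed by -0.12 ± 0.46 (SE) and Fut2, which makes the H antigen, by 0.23 ± 0.51 (SE).

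The ratios to the reference RNA are given as counts, with no test. The low COH ratio of St6galnac5 was part of the choice. In COH cells 8 of 36 members (22.2%) were above the reference on all 4 arrays, beside 21.4% of the 9792 named genes, and 14 (38.9%) were below it, beside 42.9%, or 13 of 35 without St6galnac5. The named genes include the members. In control cells 8 (22.2%) were above on all 4 arrays, beside 22.3%, and 12 (33.3%) below, beside 45.9%. Galnt10, Mgat4c, St6galnac2, Mgat5, St3gal5 and B4galnt4 were above in both conditions. For B4galnt4 this held for the mean of 2 spots. Its spot with distinct values on all arrays was at -0.18, -0.006, -1.14 and 0.22 on the control arrays, and at -0.18 on COH 3. The 5 members with the highest mean in control cells were Galnt10 (2.04 ± 1.40 in COH and 2.85 ± 1.13 in control), Mgat4c (2.94 ± 0.33 and 2.38 ± 0.55), St6galnac2 (2.14 ± 1.23 and 1.96 ± 0.999), Mgat5 (2.77 ± 1.05 and 1.70 ± 1.35) and St3gal5 (1.93 ± 0.46 and 1.61 ± 0.88; COH first in each, SD, n = 4). The 2 conditions overlapped in each of these 5 genes.

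The 5 members with the lowest mean in control cells were St3gal6 (-3.90 ± 0.40 in COH and -3.68 ± 0.30 in control), Mgat2 (-3.07 ± 1.23 and -2.73 ± 0.63), B4galt1 (-2.77 ± 0.49 and -1.92 ± 1.26), St3gal4 (-1.16 ± 0.75 and -1.51 ± 0.37) and B3galnt1 (-1.40 ± 0.60 and -1.49 ± 0.58). In each condition all 5 were below the reference on 4 of 4 arrays. For B4galt1 this held for the mean of 2 spots, of which 1 was at 1.42 on control 1. St6galnac5 had 1 control array above the reference and no COH array. The dyes were not swapped, so these ratios carry no test.

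**Figure D3:**
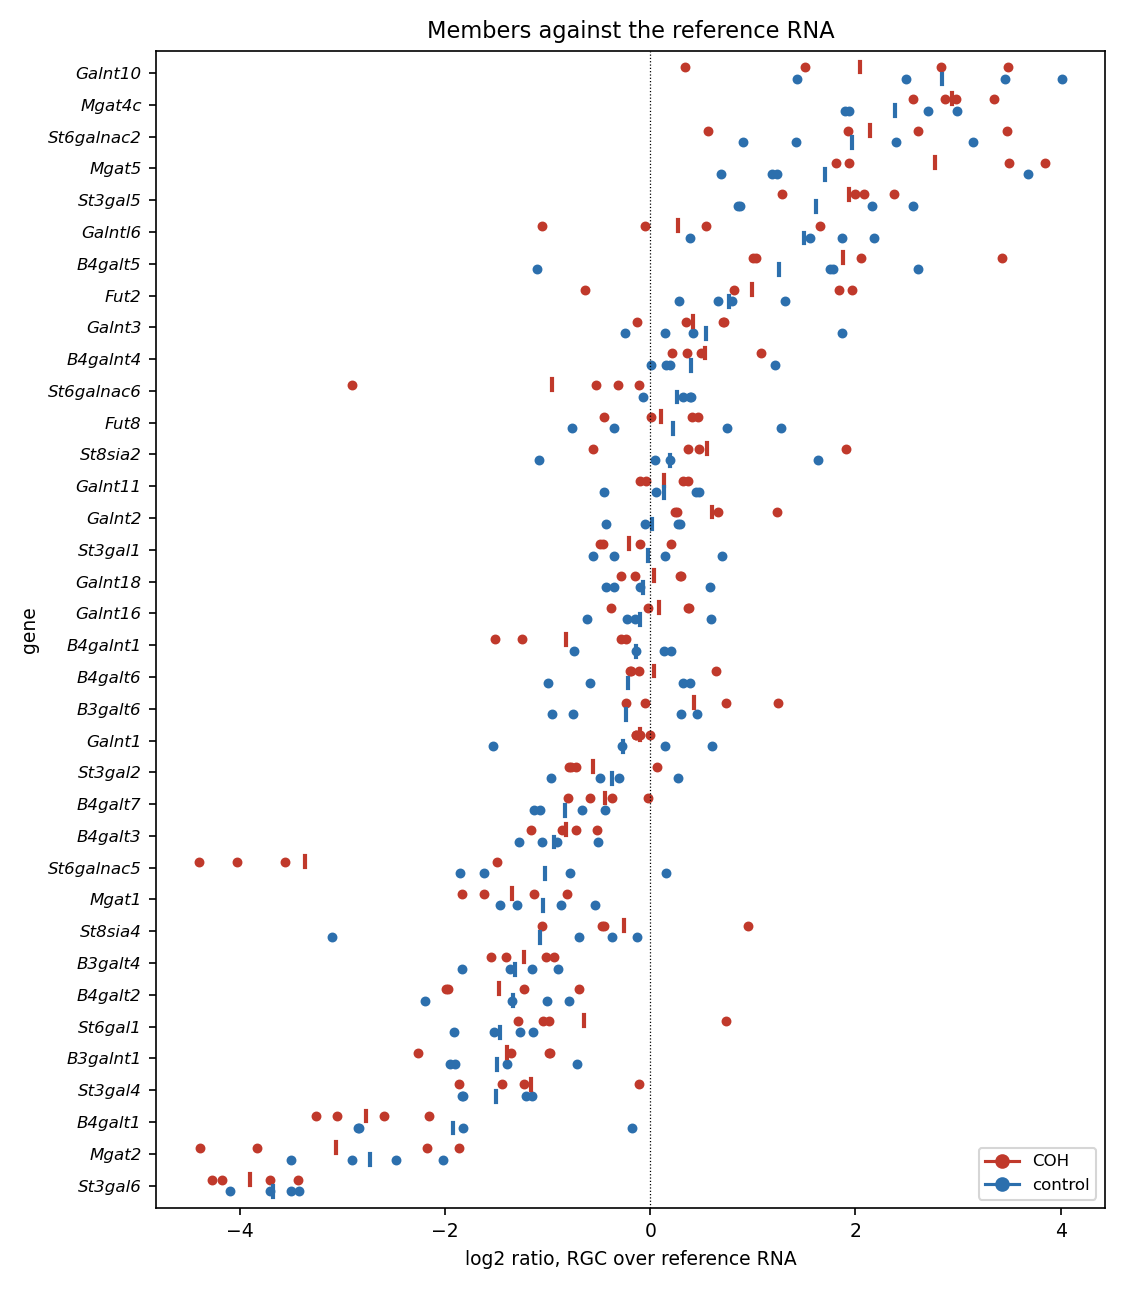
Log2 ratio of RGC over reference RNA (horizontal axis) for the 36 members (vertical axis, sorted by the control mean). Dots are arrays and short bars are means, with COH drawn above control for each gene. St3gal6 lies lowest, at means of -3.90 in COH and -3.68 in control, Galnt10 has the highest control mean (2.85), and the dots of COH and control overlap in every gene except St6galnac6.

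The spread between pools is seen in the pair differences themselves, as the SE of limma is pulled toward a common value. The SD of the 4 pair differences had a median of 0.71 over the 36 members and ran from 0.20 for B3galt4 to 2.19 for B4galt5, beside a median of 0.83 over all items. For the 17 members with a spot of distinct values on all arrays that median was 0.66, and for the 19 without one it was 0.87. Of the 47 member spots valued on all arrays 36.2% had distinct values on all 8, beside 46.1% of named spots, and 19.1% had shared values on all 8, beside 12.6%.

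In 11 members 2 spots were valued on all arrays, which gave a second reading of the same gene on the same arrays. The mean difference had opposite signs at the 2 spots in B3galnt1, B4galnt4, Fut8 and St3gal2. The same sign was seen in B4galt1, B4galt7, Galnt3, Mgat1, St3gal5, St6gal1 and St6galnac6. The mean ratio over the 8 arrays differed between the spots by 0.06 log2 units for Mgat1 and by 3.68 for Galnt3. A spot with all pairs on one side was found in 3 of these genes: higher in 4 of 4 pairs at 1 spot each of B4galnt4 (mean 0.39), St3gal5 (mean 0.39) and St6gal1 (mean 0.55). Over all items, which average the spots of a gene, 8.38% were higher and 4.66% lower in 4 of 4 pairs. All 3 of these spots had distinct values on all 8 arrays. Items of distinct values ran upward across the array, with 358 higher to 73 lower under the selection of the design text. Nothing is read from the 3 spots.

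**Figure D4:**
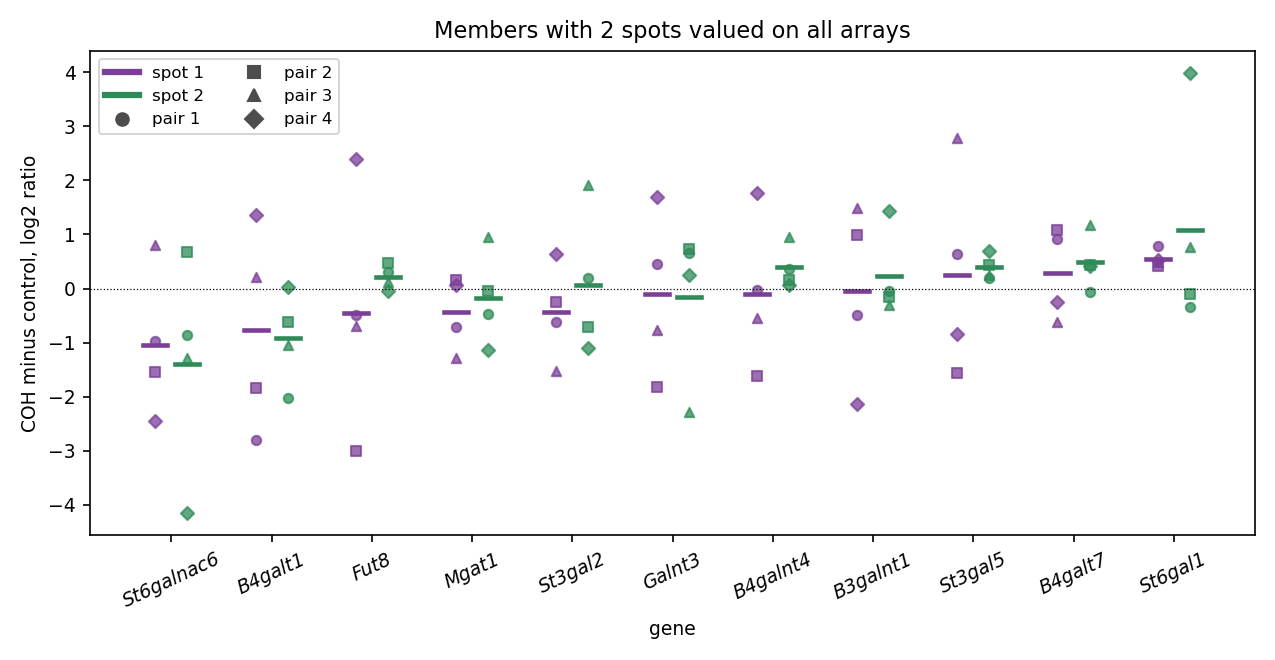
COH minus control log2 ratio (vertical axis) at each of the 2 spots of the 11 members with 2 spots valued on all arrays (horizontal axis). Symbols are pairs and bars are means of a spot. The spots of St6galnac6 average -1.04 and -1.40 but differ in which pair is higher, and the spots of St6gal1 average 0.55 and 1.08, with pair 4 at 3.99 in the second.

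The other 37 members lacked a spot valued on all 8 arrays. Of all 101 member spots 46.5% were valued on all 8, beside 55.4% of named spots and 50.5% of the spots of the array. For 12 of the 37 genes the best spot had a value on 7 arrays, for 10 on 6, for 3 on 5, for 8 on 4, for 2 on 3 and for 1 on 2, and the spot of B3gnt5 had none. There were 31 member spots that had a value on more COH than control arrays and 13 on fewer, while over all spots the shares were 21.2% and 15.2%. A spot of B4galt4 and one of St3gal5 had a value on 4 COH arrays and 0 control arrays, as did 0.108% of all spots, and 0 member spots showed the reverse, beside 0.0243%.

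Of the 41 spots of these 37 genes, 12 had 3 complete pairs. In Fut7, which makes selectin ligands on leukocytes, the 3 pairs were lower in COH, by -1.12 on average, with -0.62, -0.56 and -0.51 on COH arrays 1, 2 and 4, against 0.46, 0.90, 0.30 and 0.32 on the control arrays. Galnt14 was lower in 3 of 3 pairs (-1.17), as were B3gntl1 (-0.73) and Mgat4b (-0.68). At 1 spot of B3gnt2, an extender of lactosamine chains, COH was higher in 3 of 3 pairs, by 2.17, and at its other spot it was lower in 2 of 2 pairs, by -0.82. B3galt5, B4galt4, Galnt7, Mgat4a, Mgat5b, St6galnac3 and St8sia5 had pairs of either sign. Over the array, the share of spots with 3 complete pairs that all went one way was not counted. Nothing is therefore read from the spots with 3 of 3 pairs on one side.

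With 2 complete pairs at their best spot were B3galt2, B3gnt6, B3gnt7, Galnt13, Galnt9, Galntl5, Mgat3, St6gal2, St6galnac4 and St8sia3. Those with 1 were B3gnt3, B3gnt8, Fut1, Fut11, Fut4, Fut9, Galnt17, St3gal3, St6galnac1, St8sia1 and St8sia6. No complete pair was left for B3galt1, B3gnt4, B3gnt5 and Galnt5. Mgat3, which adds the bisecting residue of N-glycans, was at 1.69, 1.42 and 0.73 on COH arrays 1 to 3, against 0.62, -0.34 and -1.14 on control arrays 2 to 4. St6gal2, the relative of St6gal1, was at -1.55, -1.15 and -1.09 on COH arrays 2 to 4, against -0.33, -0.39 and 0.46 on control arrays 1, 2 and 4. In both genes the values of COH and control cells did not overlap. The share of such spots among those with as few values was not counted, so nothing is read from it. The arrays of the 2 groups were also not the same pools throughout. Values were shared on 5 of 6 arrays for Mgat3 and on 6 of 6 for St6gal2.

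**Figure D5:**
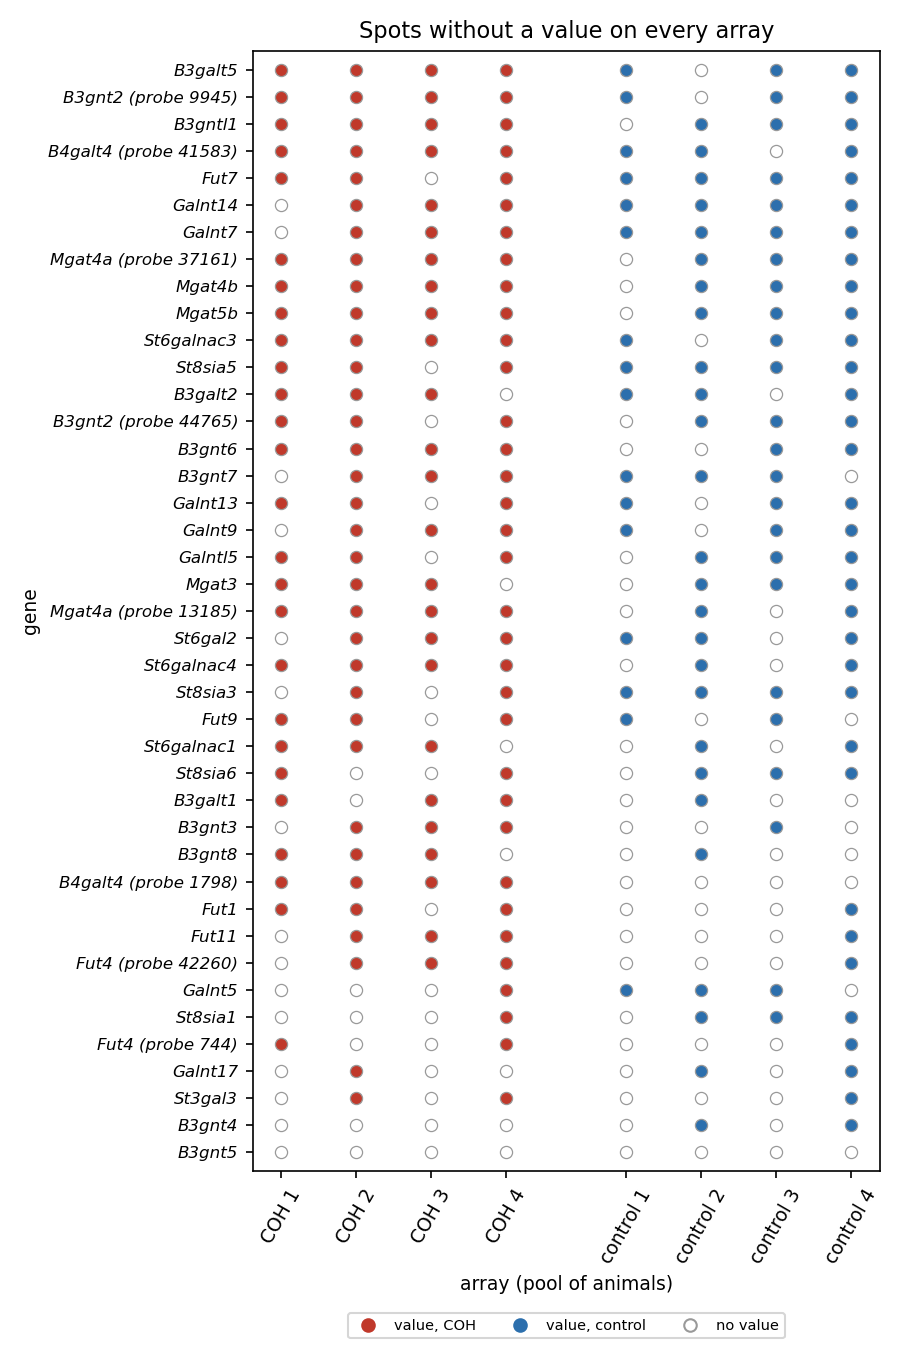
Presence of a value on each array (horizontal axis, COH on the left and control on the right) for the 41 spots of the 37 members without a spot valued on every array (vertical axis). Filled circles are values and open circles are missing. The B3gnt5 spot is empty throughout, and 1 B4galt4 spot is filled on 4 COH and 0 control arrays.

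Genes that supply or remove the substrates of these enzymes were described from lists outside the family. Of 14 genes of ceramide and glucosylceramide synthesis 5 were measured, and none had all pairs on one side. Ugcg, the glucosylceramide synthase that feeds the whole pathway, differed by -0.04 ± 0.37 (SE), and the list had a median of -0.09, or 0.03 without pair 4. Cers2, a ceramide synthase, was at -1.42, 2.87, 0.43 and -1.12 in COH, against 0.46, 1.84, 2.41 and 3.09 in control cells. It was lower in 3 of 4 pairs with overlapping groups, by -1.76 ± 0.78 (SE), or -0.94 without pair 4. Of 14 genes of ganglioside breakdown 9 were measured, with a median of 0.15. Gm2a, the activator protein that presents gangliosides to hexosaminidase, was higher in 4 of 4 pairs, by 0.42 ± 0.35 (SE), or 0.19 without pair 2, with -0.51, 0.09, -0.21 and -0.20 in COH, against -0.70, -1.04, -0.22 and -0.56 in control cells. It was the only member of that list with all pairs on one side.

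Sialic acid supply and nucleotide sugar transport had 6 of 9 genes measured, with a median of 0.07, or 0.23 without pair 4. The O-glycan and protein fucose list had 7 of 12, with a median of 0.11, or -0.01 without pair 4. Gne, the entry enzyme of sialic acid synthesis, differed by -0.08 ± 0.36, and Slc35a1, which carries activated sialic acid into the Golgi, by 0.83 ± 0.46 (SE), or 0.35 without pair 4. No gene of these 2 lists or of the 8 measured carriers and binders of sialylated glycans was on one side in all pairs. None of the genes of these 5 lists met the selection of the design text in either direction.

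Markers of other retinal cells were set beside these values. The mean difference was -0.21 over the 7 microglia and macrophage markers, with -1.03 in pair 2, and -0.09 over the 8 markers of Muller glia and astrocytes. It was -0.02 over the 4 photoreceptor markers and -0.09 over the 10 RGC markers. The median was -0.02 for the microglia and macrophage markers and -0.00 for the RGC markers, of which 5 were positive and 5 negative. One marker of each of these lists was lower under the selection of the design text, beside 2.17% of all items, and each was the most negative of its list. Cx3cr1, the microglial fractalkine receptor, was at 1.12, 1.13, 1.45 and -0.63 in COH, against 3.04, 2.64, 2.80 and 2.79 in control cells, a difference of -2.05 ± 0.44 (SE) without overlap. Thy1, a surface protein of RGCs, was at 0.30, -0.90, 0.01 and -1.45 in COH, against 2.58, -1.09, 1.35 and 0.22 in control cells, a difference of -1.28 ± 0.47 (SE) that was lower in 3 of 4 pairs. Some other markers went the other way: Tyrobp of microglia was higher in 4 of 4 pairs (0.37). Ptprc differed by 0.48, Aif1 by 0.39 and the RGC marker Stmn2 by 0.55. Of the 7 microglia and macrophage markers 3 were positive and 4 negative, among them Cd68 (-0.59, lower in 3 of 4 pairs). Of the 8 markers of Muller glia and astrocytes 3 were positive and 5 negative. Glul was higher in 4 of 4 pairs (0.83, or 0.29 without pair 3). Aqp4 was lower in 4 of 4 pairs (-0.57, or -0.04 without pair 4), and Vim differed by -0.52. The part of the cell mixture in the differences of the glycosyltransferases was not tested.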

How the data were processed

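Values were deposited as 1 log2 ratio per spot, of Cy5 (RGC) over Cy3 (reference), per the labels' dyes and the series' design text. That text says that the authors applied global and local Lowess normalization and used genes that met Agilent's quality control. Scanning software was not given in the sources used here, and intensities were not used here. Labels state 2-round amplification of the RNA. The base of the logarithm was inferred: among values held by many spots of an array, 89 to 129 pairs lay 2 apart (tolerance 2e-05), as ratios of 4 do on a log2 scale, against at most 7 pairs at the distance that natural or decimal logarithms give. Direction comes from the dyes and the design text alone. Centring beyond the Lowess step is not stated. Array medians were -0.05, -0.02, -0.06 and 0.004 for COH 1 to 4 and 0.001, -0.004, 0.13 and -0.01 for control 1 to 4.

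Genes were named from the platform's annotation, with 25353 spots of 1 symbol, 48 of several and 19819 of none. All 101 member spots had a gene identifier in the reference table. Spots valued on all 8 arrays were averaged per gene, which gave 18595 items, of which 9792 were named genes. Limma (version 3.58.1, R 4.3.3; lmFit and eBayes, two-sided, Benjamini-Hochberg over all items) was fitted on all arrays with the replicate number as a block. The pairing comes from the design text. Deviations of same-numbered arrays correlated at 0.09, 0.02, 0.06 and 0.03, and those of differently numbered ones at -0.19 to 0.09. The fit was tested on simulated data.

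The genes and lists were chosen with earlier results of these data known. Named genes were St6galnac5 and the measured ganglioside list, members with all pairs on one side, the 5 highest and 5 lowest control ratios, the 3 steadiest, and pathway genes with all pairs on one side. Members without a complete spot were all named. Others, among them Galntl6, Galnt1, Galnt3, Galnt11, Galnt16, Galnt18, Cers2, the single cell markers, St8sia2, St8sia4, Mgat1, B3galt6, B4galt2, B4galnt4, Fut2, Fut8, Ncam1, Ugcg, Gne and Slc35a1, were added for their roles after values were seen. The spread is that between pools, and the number of arrays limits the precision. Alternatives covered scaling, the block, spot filters, spot averaging, the prior, an unmoderated analysis of variance and each pair left out.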

Additional observations from a re-analysis of the deposited data

Results flagged for a closer look

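Of 44 groups of 4 arrays (the named members in COH and in control), 5 had an array far from the other 3 by Dixon's criterion, where chance marks about 1 in 20. COH 4 was the far array in 3 of them. St6galnac6 was at -2.902 on COH 4, with the other COH arrays at -0.52, -0.11 and -0.31. St6gal1 was at 0.735 on COH 4, above -1.05, -0.98 and -1.29. B4galt6 was at 0.646 on COH 4, above -0.20, -0.18 and -0.11. In control cells St6galnac6 was at -0.066 on control 3, below 0.38, 0.32 and 0.40. St3gal2 was at 0.062 on COH 1, above -0.79, -0.77 and -0.72. The part of the COH 4 array in these values was not tested.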

How the results depend on the processing

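In all 15 alternatives 0 members passed the adjusted threshold. The median difference over the members stayed within 0.03 to 0.18, which is within its spread between pairs. By the design-text rule 1 member was higher. That count was 0 with arrays brought to the same spread, with distinct values only, with the trended robust prior and with the unmoderated analysis of variance, and 2 with at least 3 complete pairs. The count of 2 lower members was 4 with the trended robust prior, 3 with at least 3 complete pairs and 1 with distinct values only. With distinct values that 1 was another gene, as neither St6galnac5 nor Galntl6 had a spot of distinct values. Without the replicate block 0 were higher and 1 was lower. Leaving out a pair, or COH 4 alone, gave 0 to 1 higher and 1 to 2 lower: the higher call was lost without pair 1, 3 or 4 or without COH 4, and a lower call without pair 1, pair 2 or COH 4. Above the reference on all control arrays were 8 members, 12 with each array centred on its median or brought to the same spread, and 4 of 17 with distinct values. Below it were 12, 11 under both scalings, 14 with one spot per gene and 7 of 17 with distinct values. The shifts with distinct values follow in part from fewer genes, 17 in place of 36, and otherwise the cause was not tested. No named gene with all pairs on one side changed sign, while St3gal1, St3gal2, St3gal5, B4galt5, St6galnac2, Mgat2 and B3galnt1 did in at least 1 alternative, by less than their spread between pairs. St6galnac5 ranged from -2.57 to -2.04, and with distinct values it drops out, as its spot was shared on all 8 arrays. The unmoderated analysis of variance, whose form the design text does not give, selected 345 higher and 221 lower items, against 477 and 403 in limma, and 0 after Benjamini-Hochberg adjustment. Over all items distinct values gave 358 higher to 73 lower, quantile normalization 423 to 495, and without pair 3 it was 323 to 467. Signal over background was not used here, so what dim spots limit cannot be stated.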
